A study of Mus musculus with 9 samples.

Results

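The genes of antigen presentation by the major histocompatibility complex (MHC) were followed in 9 mouse RNA-seq libraries labelled as retina. Members were the rows of the deposited count table whose symbol starts with H2-, other than the H2-Ke genes, together with B2m, Cd74, Ciita, Nlrc5, Tap1, Tap2, Tapbp, Psmb8, Psmb9 and Psmb10. This gave 34 of the 16231 genes in the table: 16 of class I, 10 of class II, 2 regulators and 6 genes of peptide supply. The libraries fall into 3 groups of 3, young mice, aged mice and aged mice given EGCG. EGCG, or epigallocatechin gallate, is a polyphenol of green tea. The labels name no genotype, and strain, ages, dose, route and duration of treatment were not given in the sources used. Nothing says that each library is its own animal, so p-values set group differences only against the scatter of these libraries, and that scatter may be technical.

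Class I molecules pair a heavy chain with B2m (beta-2 microglobulin) and are found on nearly all nucleated cells, where they show peptides cut by the proteasome and carried into the endoplasmic reticulum by the TAP transporter. Class II molecules pair an alpha with a beta chain, are found mainly on dendritic cells, macrophages and B cells, and are loaded in endosomes with the help of Cd74 (the invariant chain) and H2-DM. In the healthy retina, class II is known to be restricted to few cells such as microglia. Transcription of the class II genes depends on the coactivator Ciita, and Nlrc5 is the related coactivator of class I genes.

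The tissue label was checked against marker genes. Of 10 photoreceptor genes listed, 5 had a row in the table, and only Gnat1 passed the filter on low counts, at 4.74 to 29.2 CPM by group mean. The retinal pigment epithelium gene Best1 was at 0 in the young and EGCG-treated libraries. Of the 6 genes listed for that tissue, 3 were tested, with group means of 12.2 to 16.4 CPM for Rdh5 and 3.56 to 15.1 for Lrat. The third was Ttr, also in the hepatocyte list, at 4144 to 5041 CPM. Of 4 Muller glia genes listed, 2 were tested, Glul at 1217 to 1350 CPM and Aqp4 at 1.35 to 6.98. The hepatocyte genes Alb (serum albumin) and Trf (transferrin) reached 81970 to 87650 and 13360 to 17360 CPM by group mean. The 8 hepatocyte genes summed to 143400 to 145900 CPM in young, 134400 to 135800 in aged and 136600 to 141500 in EGCG-treated libraries. The photoreceptor and hepatocyte genes go against the label, while the other tested retinal list genes were present. Retina is used here only as the submitters' name for the tissue. CPM is a gene's count relative to its library's total, scaled with TMM factors that correct for composition. Libraries held 34240500 to 39922044 counts, so 3 counts correspond to 0.0712 to 0.0961 CPM, and the members took 0.601 to 0.608% of all counts in young, 0.802 to 0.812% in aged and 0.758 to 0.772% in EGCG-treated libraries.

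Aged libraries were first compared with young ones. Class II genes rose several-fold with age, whereas the abundant class I genes rose by little. Of the 33 members that passed the filter, 29 were called higher and 1 lower at an adjusted p under 0.05 (edgeR's quasi-likelihood test), where 69.5% of all 12747 genes tested were called, 33.4% higher and 36.1% lower. The median log2 fold change was 2.52 over the 9 tested class II genes, 0.56 over the 16 class I genes and 0.49 over the 6 genes of peptide supply, against -0.01 over all genes tested. The groups did not overlap for 30 of 33 members, an arrangement seen for 71.4% of all genes. A gene that passed the filter only through the groups where it is high was favoured to differ. Ciita, H2-DMb2, H2-M2, H2-Oa and H2-Ob had 28, 9, 6, 2 and 8 counts over the 3 young libraries together. They passed through the aged or treated libraries, so the counts of calls and the medians are descriptions.

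**Figure D1:**
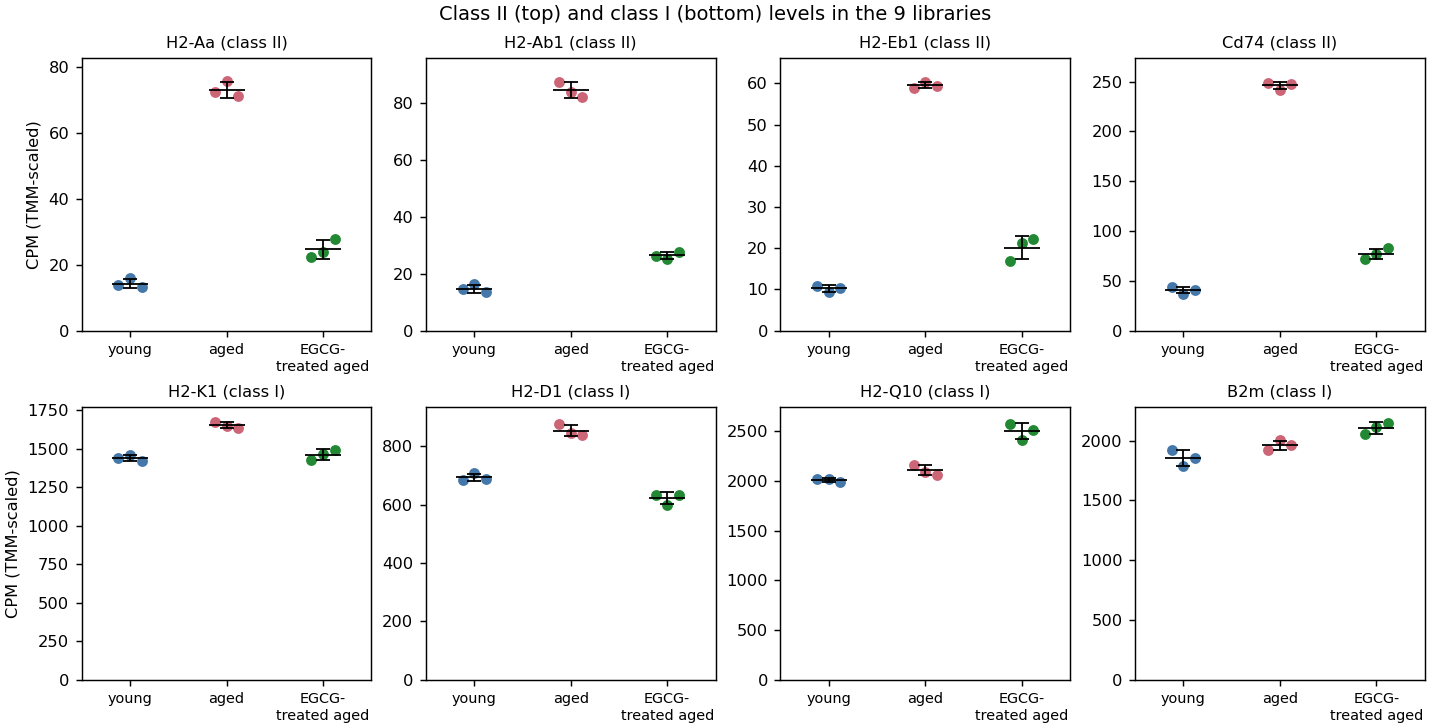
CPM of 4 class II genes (top) and 4 class I genes (bottom) in each library. Points are libraries, the horizontal mark and bar are the mean and SD of 3, and every axis starts at 0; H2-Aa averaged 14.3, 72.9 and 24.6 CPM in the young, aged and EGCG-treated groups, and H2-K1 1439, 1651 and 1461.

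The tested chains of the classical class II molecules I-A and I-E rose together. No alpha chain gene of I-E was among the members. H2-Aa, the alpha chain of I-A (chr17:34282744-34287823, GRCm38, protein coding), was at 13.8, 15.9 and 13.2 CPM in the young libraries, 72.2, 75.55 and 71.0 in the aged and 22.25, 23.96 and 27.7 in the EGCG-treated ones. Each aged library lay above every treated library, and each treated library above every young one. H2-Ab1, the beta chain of I-A (chr17:34257689-34269419), was at 14.5, 16.3 and 13.6 CPM in the young, 87.65, 83.9 and 82.2 in the aged and 26.3, 25.35 and 27.8 in the treated libraries. H2-Eb1, the beta chain of I-E (chr17:34305867-34316674), was at 10.9, 9.43 and 10.4 CPM in the young, 58.9, 60.4 and 59.3 in the aged and 16.98, 21.3 and 22.2 in the treated libraries. The order of the groups was the same for both, with no overlap. With age H2-Aa rose by 2.35 (log2, SE 0.069, edgeR adjusted p = 4.51e-30), H2-Ab1 by 2.52 (SE 0.061, adjusted p = 3.95e-33) and H2-Eb1 by 2.54 (SE 0.076, adjusted p = 1.16e-29).

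Cd74, which blocks and escorts class II chains until they reach the endosome, was the most abundant class II gene per length. It was at 43.5, 37.3 and 40.8 CPM in the young, 249, 242 and 248 in the aged and 72.2, 76.85 and 82.5 in the treated libraries, again without overlap. It rose by 2.60 with age (SE 0.045, adjusted p = 7.31e-39). In deposited FPKM, which divides by gene length, Cd74 averaged 183 in the aged libraries, H2-Ab1 74.6 ± 2.2 (SD, n = 3), H2-Aa 68.0 ± 2.2 and H2-Eb1 37.5. The 3 chains summed to 2.9 ± 0.15 per 100 FPKM of H2-K1 plus H2-D1 in young, 13.5 ± 0.21 in aged and 5.38 ± 0.36 in treated libraries. In bulk tissue, fewer cells of a type and less RNA per cell cannot be told apart.

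The accessory class II genes were far lower but moved by a similar amount with age. H2-DMa and H2-DMb1, which encode the H2-DM peptide editor that exchanges the invariant chain fragment for antigen, rose by 2.24 (SE 0.23) and 2.40 (SE 0.23). H2-DMb1 was at 1.22, 1.051 and 0.757 CPM in the young, 6.09, 5.05 and 4.795 in the aged and 2.32, 2.77 and 2.75 in the treated libraries. No library of a group reached the range of another. H2-DMb2, a second beta chain gene of H2-DM, rose from 9 counts over the young to 88 over the aged libraries, and H2-Ob, a chain of the H2-DM inhibitor H2-O, from 8 to 59. H2-Oa, the other chain of H2-O, had 2 counts over the young and 26 over the aged libraries, a ratio of 10.4 with an exact 95% interval of 2.61 to 90.6 that covers counting error only. H2-Oa lost its call when young replicate 1 or 3 was left out (adjusted p = 0.0535 and 0.0573). H2-Eb2, which did not pass the filter, had 0 counts in the young and 16 in the aged libraries, at least 4.28-fold higher on the CPM scale when set against 3 counts over the young group.

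Promoter sequence is shown for class II genes that moved together, because the known X and Y boxes of these genes lie just before the start site. RefSeq windows of 250 bases before to 50 after the start (GRCm38.p6) matched 26 of the 34 members and 8 of the 10 class II genes, and both strands were searched. The Y box letters ATTGG occurred in all 8 class II genes matched, against 37.4% of 32851 windows. A gene counted if any of its windows had the letters, and the H2-DMa window at chr17:34122582-34122881 lacked them. The X1 box core AACNGATG occurred in 4 of 8, against 2.32% of windows, and the X2 box TGANGTCA in 1 of 8, against 8.83%. In H2-Eb1, H2-Eb2, H2-DMb1 and H2-DMb2 the X1 core was followed on the sense strand by ATTGG after 30 or 31 bases, start to start, and windows with a spacing of 20 to 40 bases numbered 5 of all 32851, these 4 included. No matches of different motifs overlapped. The range of spacings was chosen with these windows known. Below are the 250 bases before the start of H2-Aa at chr17:34287824-34288073 (minus strand), H2-Eb1 at chr17:34305617-34305866 (plus strand) and H2-DMb1 at chr17:34152941-34153190 (plus strand), 5′ to 3′ along each gene. Capitals mark the Y box or its reverse complement, the X1 core in H2-Eb1 and H2-DMb1 and the X2 box in H2-Aa.

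H2-Aa: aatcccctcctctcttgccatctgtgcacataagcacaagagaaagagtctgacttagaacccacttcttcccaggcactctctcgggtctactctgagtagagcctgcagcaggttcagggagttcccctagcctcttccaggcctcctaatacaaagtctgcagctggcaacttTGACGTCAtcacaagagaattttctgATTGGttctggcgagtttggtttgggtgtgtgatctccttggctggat

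H2-Eb1: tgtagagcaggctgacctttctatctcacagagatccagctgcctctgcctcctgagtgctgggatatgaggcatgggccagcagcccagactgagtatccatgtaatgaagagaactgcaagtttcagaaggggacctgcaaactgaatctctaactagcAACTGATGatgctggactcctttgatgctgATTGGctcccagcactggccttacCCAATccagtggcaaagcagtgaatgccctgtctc

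H2-DMb1: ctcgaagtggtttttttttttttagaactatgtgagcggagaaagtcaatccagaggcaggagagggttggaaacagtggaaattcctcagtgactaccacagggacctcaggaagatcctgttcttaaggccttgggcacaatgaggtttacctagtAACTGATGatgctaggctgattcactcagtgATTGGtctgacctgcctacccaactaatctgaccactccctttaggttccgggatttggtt

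Ciita and Nlrc5 moved in opposite directions with age. Ciita (chr16:10480059-10528418) was at 0.256, 0.371 and 0.242 CPM in the young, 2.76, 1.62 and 2.635 in the aged and 1.64, 0.95 and 1.11 in the treated libraries. The young libraries lay below all others, and the lowest aged library overlapped the highest treated one. Ciita rose by 3.0 with age (SE 0.38, adjusted p = 4.31e-09), on 8 to 12 counts per young library, and part of its exons overlaps the antisense gene Dexi. Nlrc5 (chr8:94434356-94527272) was at 28.4, 28.1 and 28.4 CPM in the young, 21.8, 20.85 and 23.2 in the aged and 17.8, 19.6 and 17.9 in the treated libraries. It fell by 0.37 with age (SE 0.069, adjusted p = 9.39e-06), a call that was lost on log2(FPKM + 1), where limma gave -0.13 (adjusted p = 0.0671). The call held with upper-quartile factors (-0.26, adjusted p = 0.000938) and with DESeq2 (-0.35, adjusted p = 9.46e-06). Of the 7 factors that bind X and Y boxes (the RFX, CREB and NF-Y subunits), 4 rose and 2 fell with age, where 69.5% of all genes were called, including Rfx5 up by 0.44 and Nfya down by 0.50.

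The most abundant members per length were class I genes, and these abundant ones rose slightly with age on the CPM scale. H2-K1 (chr17:33996017-34000347), a classical heavy chain, was at 1439, 1457 and 1421 CPM in the young, 1672, 1648 and 1634 in the aged and 1426, 1464 and 1493 in the treated libraries. H2-D1 (chr17:35262730-35267499), the other classical heavy chain, was at 685.7, 707 and 688 CPM in the young, 876, 846 and 839 in the aged and 634, 599 and 633 in the treated libraries. For both, the aged libraries stood above the other 6. H2-K1 rose by 0.20 (SE 0.021, adjusted p = 2.48e-11) and H2-D1 by 0.30 (SE 0.024, adjusted p = 1.95e-14) with age. In FPKM the young and aged means were 618 and 814 for H2-K1 and 366 and 517 for H2-D1. The size of these rises thus depends on the scaling. B2m (chr2:122147686-122153083) was at 1921, 1789 and 1851 CPM in the young, 1923, 2001 and 1961 in the aged and 2052, 2113 and 2148 in the treated libraries. B2m rose by 0.08 with age (adjusted p = 0.0012) and by 0.19 with upper-quartile factors, under which the median of all genes moved from -0.01 to 0.09.

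H2-Q10, a class I gene known to be expressed mainly in liver and to encode a secreted protein, was the most abundant heavy chain gene per length. It was at 2022, 2017 and 1986 CPM in the young, 2161, 2092 and 2064 in the aged and 2574, 2414 and 2513 in the treated libraries (chr17:35470089-35474563). Its groups did not overlap, and the treated libraries were highest. In FPKM, H2-Q10 averaged 1249 in the young libraries, H2-K1 618, H2-D1 366 and H2-T23 125. H2-Q10 rose by 0.07 with age (SE 0.021, adjusted p = 0.00418), a call that was lost without aged replicate 1 (0.05, adjusted p = 0.0561). Its mean FPKM was 1249 in young and 1503 in aged libraries, so the size of this rise depends on the scaling. It made up 51.8 ± 0.24% of the FPKM of all class I heavy chains in young, 48.7 ± 0.25% in aged and 58.0 ± 0.72% in treated libraries (SD, n = 3).

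The promoters of H2-K1, H2-Q10 and B2m are shown because these class I genes differed in direction after treatment. The letters GGGGA and TCCC with 1 base between them, a kappa B site known from classical class I promoters, occurred in 4 of 13 class I genes matched (H2-K1, H2-D1, H2-Q6 and H2-Q7), against 0.323% of all windows. ATTGG occurred in 12 of 13, the exception being H2-Q10, and TGANGTCA in 6 of 13. A pair of TTTC runs with 2 bases between them, as in interferon response elements, occurred in 3 of 13 (B2m, H2-T22 and H2-T23), against 3.44%, and TTCNNGGAA, as in STAT sites, in 1 of 13, against 4.81%. A match is a description of the letters, and a missing match says only that they are not in this window. The 250 bases before the start are given for H2-K1 at chr17:34000348-34000597 (minus strand), H2-Q10 at chr17:35469839-35470088 (plus strand) and B2m at chr2:122147437-122147686 (plus strand). Capitals mark TGANGTCA in H2-K1 and H2-Q10, then the kappa B letters and ATTGG in H2-K1, and the TTTC pair (read on the other strand) and ATTGG in B2m.

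H2-K1: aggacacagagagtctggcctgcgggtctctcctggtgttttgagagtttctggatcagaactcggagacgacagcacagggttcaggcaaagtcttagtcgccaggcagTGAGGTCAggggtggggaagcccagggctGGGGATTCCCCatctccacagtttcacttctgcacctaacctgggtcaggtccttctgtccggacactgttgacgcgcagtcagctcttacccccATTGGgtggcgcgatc

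H2-Q10: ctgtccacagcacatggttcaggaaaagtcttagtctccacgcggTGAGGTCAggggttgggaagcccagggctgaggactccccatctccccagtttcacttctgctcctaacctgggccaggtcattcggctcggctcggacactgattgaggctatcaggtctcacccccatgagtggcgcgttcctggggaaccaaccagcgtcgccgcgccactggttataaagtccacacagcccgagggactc

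B2m: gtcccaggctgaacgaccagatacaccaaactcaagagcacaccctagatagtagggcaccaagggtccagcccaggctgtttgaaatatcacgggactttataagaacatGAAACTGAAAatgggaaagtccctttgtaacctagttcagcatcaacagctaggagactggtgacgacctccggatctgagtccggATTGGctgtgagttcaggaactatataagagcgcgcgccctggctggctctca

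The other nonclassical class I genes were lower, and several changed more with age than H2-K1 or H2-D1. H2-T23, which encodes Qa-1, the ligand of an inhibitory NK cell receptor, was at 178, 181 and 179 CPM in the young, 203, 210 and 199.5 in the aged and 167, 157 and 165.5 in the treated libraries. H2-Q4 was at 39.4, 37.2 and 39.5 CPM in the young, 61.9, 64.0 and 59.7 in the aged and 40.3, 41.65 and 40.5 in the treated libraries. In both genes the aged libraries stood above all others, and with age H2-T23 rose by 0.19 and H2-Q4 by 0.68 (adjusted p = 1.47e-06 and 1.15e-15). H2-Q1 was at 3.91, 2.87 and 2.45 CPM in the young, 6.76, 7.50 and 6.74 in the aged and 6.27, 5.92 and 6.53 in the treated libraries, a rise of 1.19 with age. H2-M3, known to present N-formylated bacterial peptides, rose by 1.56 (SE 0.32) from 0.792 to 2.33 CPM. H2-M2, with 6 counts over the young and 82 over the aged libraries, had the largest fitted change of all members (3.4, SE 0.78), which at such counts depends on the prior count. H2-Q2 and H2-T-ps, an annotated pseudogene, were not called (adjusted p = 0.265 and 0.715).

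Reads of class I genes can be shared among near-identical copies. Of the 50-base words in the GENCODE M21 transcripts of H2-T22, 34.5% also occurred in transcripts of another gene, mainly H2-T10, and the share was 32% for H2-Q6, 26.4% for H2-Q7, 19% for H2-Q10, 12.8% for H2-D1 and 9.63% for H2-K1. It was 22.7% for H2-DMb1 and 24.8% for H2-DMb2, but 0% for B2m, Cd74, H2-Ab1 and H2-Eb1 and 0.488% for H2-Aa. H2-Q9 had no match in that annotation. How the authors counted such reads is not given, so the values of single Q, T and DMb genes are uncertain. H2-Q6, H2-Q7 and H2-Q9, known to encode Qa-2, summed to 9.81, 11.2 and 13.6 CPM in the young, 18.2, 17.3 and 17.6 in the aged and 15.1, 10.5 and 12.8 in the treated libraries. H2-Q7 alone was at 4.07, 5.44 and 6.72 CPM in the young, 9.60, 7.91 and 8.52 in the aged and 10.3, 5.62 and 6.31 in the treated libraries, so treated replicate 1 stood apart from its group.

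Genes of peptide supply rose moderately with age. Tap1, a subunit of the peptide transporter, was at 21.0, 19.8 and 18.5 CPM in the young, 26.4, 30.04 and 30.05 in the aged and 33.75, 33.1 and 30.1 in the treated libraries. Psmb8, a catalytic subunit of the immunoproteasome, was at 19.5, 20.6 and 18.0 CPM in the young, 30.3, 25.0 and 26.35 in the aged and 25.35, 26.8 and 27.6 in the treated libraries. Psmb9, another such subunit, was at 8.36, 7.88 and 9.84 CPM in the young, 13.6, 13.7 and 13.9 in the aged and 15.9, 16.2 and 18.0 in the treated libraries. In all 3 genes every aged and treated library lay above the young ones. The same held for Tapbp (tapasin, which bridges TAP and class I), at 72.6, 72.7 and 69.3 CPM in the young, 100.6, 102 and 96.9 in the aged and 89.5, 92.6 and 93.35 in the treated libraries. With age Psmb9 rose by 0.66, Tap1 by 0.54, Psmb8 by 0.49, Tapbp by 0.48 and Tap2 by 0.34, with adjusted p from 2.34e-14 to 5.28e-05. Psmb10, the remaining subunit, changed by 0.02 (adjusted p = 0.806), although on log2(FPKM + 1) limma gave 0.21 (adjusted p = 0.0094). Psmb9 and Tap1 lie head to head and share 212 exonic bases on opposite strands.

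The immunoproteasome subunits replace constitutive ones, and with age Psmb8 and Psmb9 rose while all 3 constitutive subunits fell on the CPM scale. Psmb5, Psmb6 and Psmb7, the constitutive counterparts of Psmb8, Psmb9 and Psmb10, fell by 0.33, 0.30 and 0.26 (edgeR adjusted p = 1.74e-08, 9.74e-09 and 2.4e-08). In FPKM, Psmb8 made up 15.1, 15.4 and 14.6% of Psmb8 plus Psmb5 in the young, 26.0, 21.8 and 23.5% in the aged and 16.8, 17.85 and 19.6% in the treated libraries. The groups did not overlap, with the treated ones between the other groups. Psmb9 made up 7.08 ± 0.76% of Psmb9 plus Psmb6 in young, 12.9 ± 0.72% in aged and 11.3 ± 0.56% in treated libraries (SD, n = 3). Psmb10 made up 16.0 ± 0.47%, 18.85 ± 0.68% and 16.0 ± 1.3% of Psmb10 plus Psmb7. In FPKM the constitutive subunits changed less with age: Psmb7 averaged 92.6 FPKM in young and 88.6 in aged libraries, and Psmb6 overlapped, with 91.7 FPKM in young replicate 2 and 91.85 in aged replicate 1. Their summed level was 0.815 of the young mean in CPM and 0.935 in FPKM. The shares above divide 2 genes of the same library and do not depend on the scaling between libraries. Among 7 genes of class I loading and trimming, 3 rose and 3 fell with age, against 33.4% and 36.1% of all genes; the chaperones Calr and Pdia3 fell by 0.71 and 0.56, and the proteasome activator subunit Psme1 rose by 0.40.

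**Figure D2:**
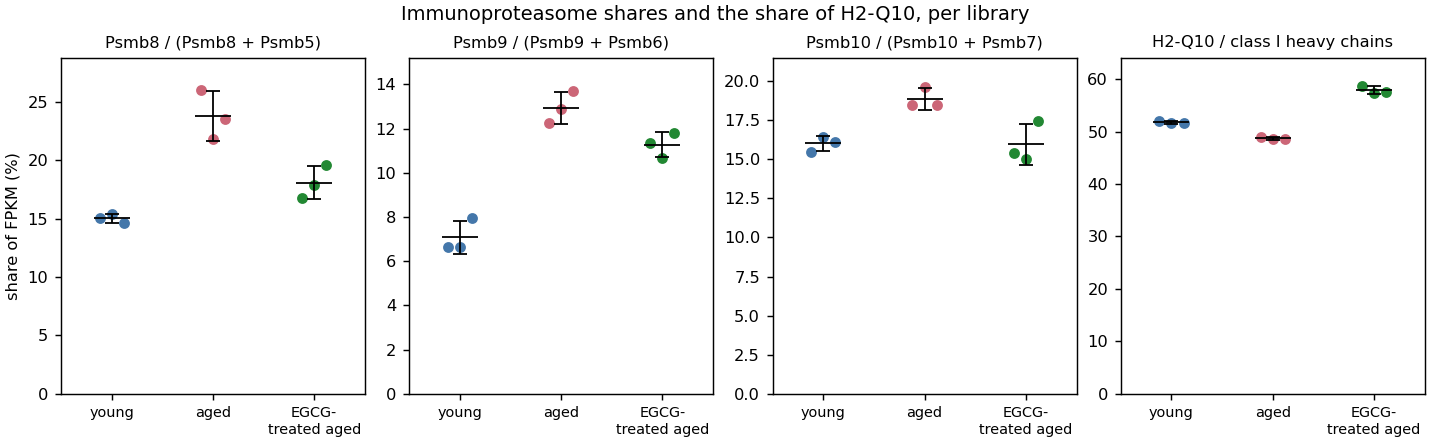
Share of each immunoproteasome subunit in the sum of itself and its constitutive counterpart, and share of H2-Q10 in all class I heavy chains, as percent of FPKM per library. Points are libraries and bars the mean and SD of 3; the Psmb8 share rose from 15.0% to 23.8% with age and stood at 18.05% after treatment.

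EGCG-treated aged libraries were next compared with untreated aged ones. Cd74, H2-Aa, H2-Ab1 and H2-Eb1 fell by about the same factor, the abundant heavy chains H2-K1 and H2-D1 fell by less, and H2-Q10, B2m, Psmb9 and Tap1 rose. Of 33 members, 19 were called lower and 4 higher, where 63.3% of all genes tested were called, 31.5% lower and 31.8% higher. The groups did not overlap for 23 of 33 members and for 66.9% of all genes. The median change was -1.02 over the 9 class II genes, -0.39 over the 16 class I genes and -0.01 over the 6 genes of peptide supply, against 0.01 over all genes. The class II median lay above the class I median by 1.96 with age and below it by a difference of -0.63 with treatment. The aged libraries serve in both comparisons, so the 2 sets of changes are not independent.

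Cd74 fell by 1.67 (SE 0.041, edgeR adjusted p = 1.7e-32), H2-Ab1 by 1.67 (SE 0.056, adjusted p = 1.43e-27), H2-Aa by 1.57 (SE 0.064, adjusted p = 1.59e-24) and H2-Eb1 by 1.56 (SE 0.069, adjusted p = 3.22e-23), which is 2.95-fold to 3.19-fold lower. The H2-DM genes fell by less, H2-DMb1 by 1.02 (SE 0.2) and H2-DMa by 0.72 (SE 0.2). H2-DMb2, H2-Oa and H2-Ob, at -0.40, -0.23 and 0.56, were not called (adjusted p = 0.504, 0.803 and 0.365). Per 100 FPKM of H2-Aa, H2-Ab1 and H2-Eb1, the H2-DM genes stood at 3.54, 3.06 and 2.77 in the young, 3.54, 2.82 and 2.84 in the aged and 5.13, 4.95 and 4.85 in the treated libraries. The treated libraries lay above the other 6, for which the ranges overlapped. The authors' length for H2-DMa, 8325 bases, is long beside its 3448 exonic bases in GENCODE M21, and 360 of these overlap the antisense gene Brd2, so the size of this ratio is uncertain. Ciita fell by 0.92 (SE 0.31, adjusted p = 0.00959), a call that was lost without aged replicate 1 or 3 or treated replicate 2 (adjusted p = 0.0536 to 0.064).

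H2-D1 fell by 0.46 with treatment (SE 0.024, adjusted p = 2.73e-20), H2-K1 by 0.18 (SE 0.021, adjusted p = 6.86e-10), H2-T23 by 0.32 and H2-Q4 by 0.60. H2-Q9 was at 4.52, 4.48 and 5.57 CPM in the young, 6.43, 6.62 and 6.65 in the aged and 3.79, 3.58 and 5.03 in the treated libraries, and fell by 0.67 (SE 0.15, adjusted p = 0.000198). H2-Q10 rose by 0.25 (SE 0.021, adjusted p = 9.73e-14) and B2m by 0.10 (SE 0.022, adjusted p = 0.000113). Without H2-Q10, the class I heavy chains summed to 2446, 2483 and 2430 CPM in the young, 2940, 2891 and 2861 in the aged and 2379, 2372 and 2446 in the treated libraries. With H2-Q10 included, the group means were 4461, 5003 and 4899 CPM. The lower level after treatment was thus 0.828 of the aged mean without H2-Q10 and 0.979 with it. H2-T22 was at the edge, at -0.10 (adjusted p = 0.0288), and lost its call with upper-quartile factors (-0.04, adjusted p = 0.402) and without aged replicate 1 or 3 or treated replicate 1 (adjusted p from 0.0656 to 0.167).

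Of the peptide supply genes, Psmb9 rose by 0.28 with treatment (adjusted p = 0.00675), Tap1 by 0.16 (adjusted p = 0.0289) and Tapbp fell by 0.12 (adjusted p = 0.00566). Psmb8, Psmb10 and Tap2, at -0.03, -0.02 and 0.00, were not called (adjusted p = 0.696, 0.821 and 0.971). Tap1 lost its call with DESeq2 (0.15, adjusted p = 0.0852) and without aged replicate 1 or treated replicate 1 or 2 (adjusted p = 0.205, 0.127 and 0.0876), Tapbp with upper-quartile factors (-0.06, adjusted p = 0.149) and Psmb9 without treated replicate 3 (0.23, adjusted p = 0.0527). The constitutive subunits Psmb5, Psmb6 and Psmb7 rose by 0.47, 0.51 and 0.27, and the chaperones Calr and Pdia3 by 0.74 and 0.60.

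**Figure D3:**
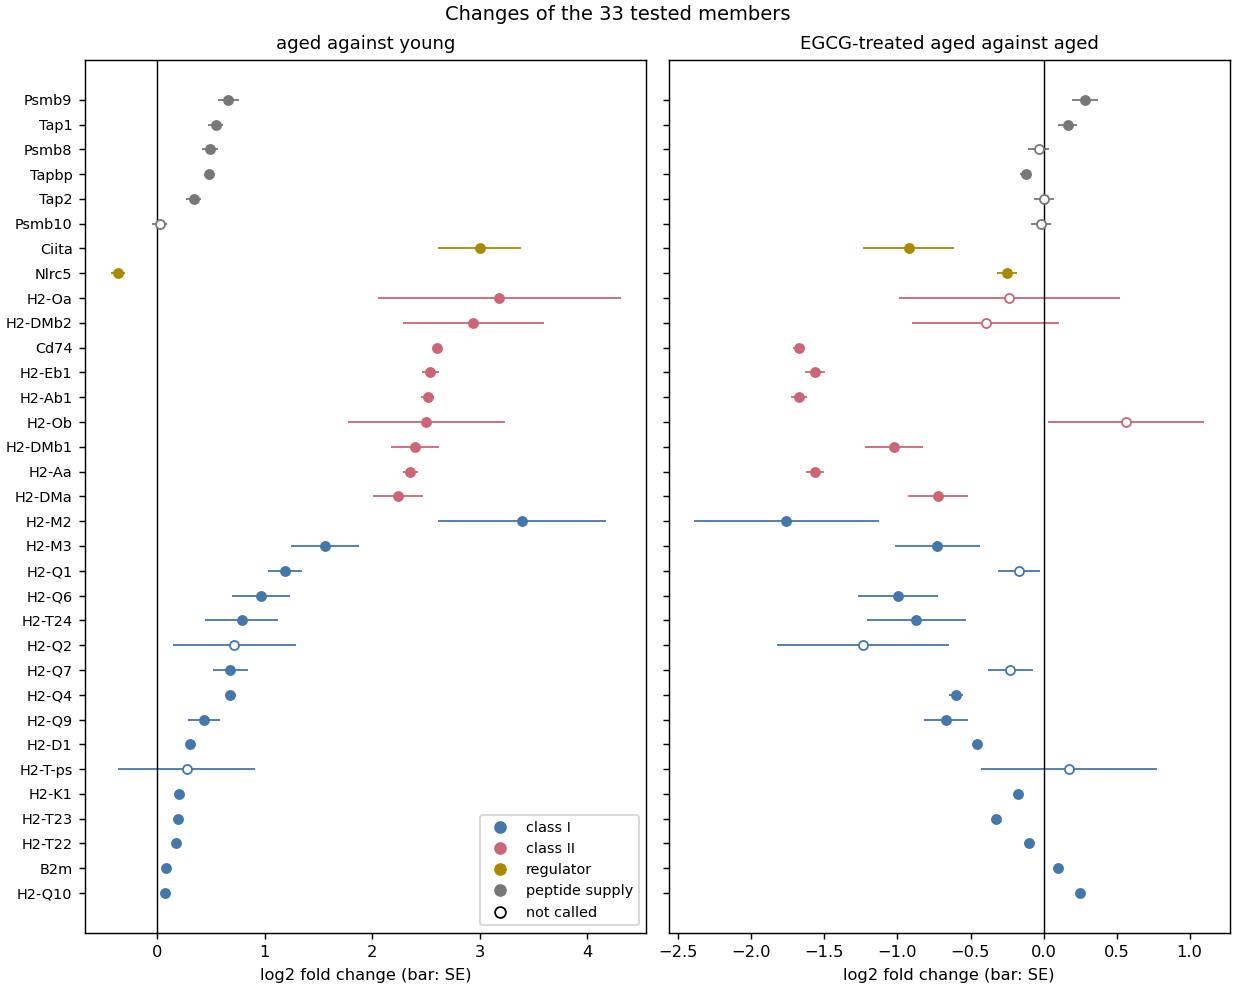
log2 fold change with SE of the 33 tested members, with age (left) and with EGCG in aged mice (right), coloured by class; open circles were not called. Class II genes lie between 2.24 and 3.18 with age, and H2-Q10 and B2m stand right of 0 in both panels.

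EGCG-treated aged libraries were also compared with young ones. All 9 tested class II genes were higher in the treated libraries, while the classical class I heavy chains lay close to the young level. Of 33 members, 20 were called higher and 3 lower, where 62.9% of all genes tested were called, 30.8% higher and 32.1% lower. The groups did not overlap for 23 of 33 members and for 65.2% of all genes. The median change was 1.37 over the class II genes, 0.08 over the class I genes and 0.41 over peptide supply, against 0.02 over all genes. The class II median lay above the class I median by 1.30. H2-DMb2, H2-Oa and H2-Ob, with 9, 2 and 8 counts over the young libraries, passed the filter through the other groups, which favours a difference. They had the largest class II changes, 2.54, 2.95 and 3.07. The same limit holds for Ciita, with 28 young counts, so these counts and medians are descriptions. Cd74 was higher by 0.93 (SE 0.046, adjusted p = 1.14e-21), H2-Eb1 by 0.98, H2-Ab1 by 0.84 and H2-Aa by 0.79. Psmb9 was higher by 0.94, Tap1 by 0.71, Tapbp by 0.36 and H2-Q10 by 0.32, with adjusted p from 3.08e-17 to 1.37e-10. H2-Q1 was higher by 1.02, and H2-Q7 by 0.45 (adjusted p = 0.0161), a call that was lost without treated replicate 1 (0.14, adjusted p = 0.493) or young replicate 1 (0.28, adjusted p = 0.159).

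H2-K1 differed from the young level by 0.02 (SE 0.021, adjusted p = 0.369), and became higher by 0.19 with upper-quartile factors (adjusted p = 4.93e-10). The 3 members called lower were Nlrc5 (-0.62), H2-D1 (-0.16) and H2-T23 (-0.14), of which H2-D1 and H2-T23 turned to 0.01 and 0.03 with upper-quartile factors and to 0.02 and 0.04 on log2(FPKM + 1), where neither was called (adjusted p from 0.22 to 0.787). TMM factors were 0.911 to 0.92 in the young and 1.03 to 1.055 in the other libraries. With upper-quartile factors the median of all genes moved from 0.02 to 0.18 in this comparison, so class I differences of this size from the young group depend on the scaling.

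Position along chromosome 17 was set beside the changes. It is not independent of the choice of members, because H2- symbols name genes of the MHC on this chromosome. Of the members, 28 lie on chromosome 17. Psmb9, Tap1, Psmb8 and Tap2 lie between H2-DMb1 and H2-Ob, so they are flanked by class II genes on both sides, and with age they rose by 0.34 to 0.66 where their class II neighbours rose by 2.40 and 2.5. With treatment these 4 genes ranged from -0.03 to 0.28, while H2-DMb1 changed by -1.02 and H2-Ob by 0.56, the last not called. H2-Ob had 8 counts over the young libraries and passed the filter through the other groups, so its rise with age is a description. H2-K1 and H2-D1, on opposite sides of the class II genes, both rose with age and both fell with treatment. Outside chromosome 17, Cd74 on chromosome 18 changed by 2.60 with age, B2m on chromosome 2 by 0.08 and Psmb10 on chromosome 8 by 0.02, the last not called.

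**Figure D4:**
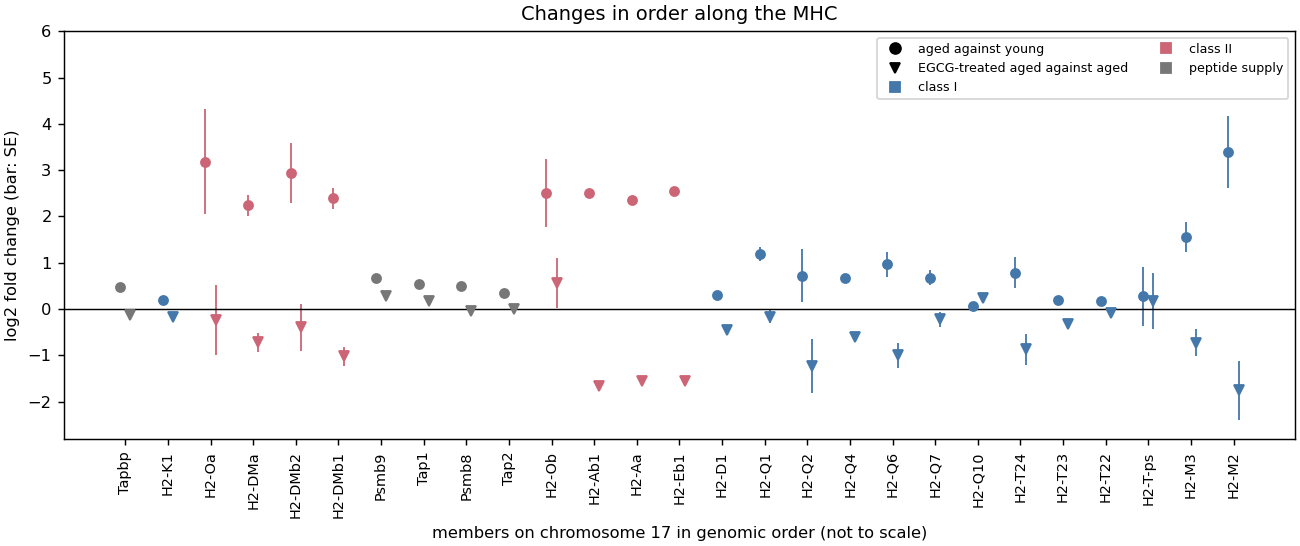
log2 fold change with SE of the tested chromosome 17 members in genomic order, evenly spaced, with age (circles) and with EGCG in aged mice (triangles). The 4 peptide supply genes between H2-DMb1 and H2-Ob lie near 0.5 with age while the class II genes around them lie above 2.

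Macrophage and Kupffer cell markers moved with class II, and their part in the result was not tested. Over all genes tested, 33.4% were called higher with age and 31.5% lower with treatment. Of 12 macrophage and Kupffer cell genes, all rose with age (median 2.25) and all fell with treatment (median -1.06). They summed to 125.7 to 126.7 CPM in young, 641 to 649 in aged and 253 to 265 in treated libraries. The class II genes summed to 79.7 to 85.1, 472 to 481 and 145.5 to 167 CPM. Over the young mean, the aged level was 5.11-fold for the macrophage genes and 5.79-fold for class II, and the treated level 2.04-fold and 1.90-fold. Cd74 per unit of the macrophage sum was 0.321 ± 0.026 in young, 0.382 ± 0.0052 in aged and 0.3 ± 0.014 in treated libraries (SD, n = 3), with the aged libraries above the other 6. Adgre1, the F4/80 antigen, rose from 2.18 to 29.9 CPM with age, and Clec4f, a marker of Kupffer cells (the macrophages of the liver), from 23.96 to 77.2 CPM.

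Markers of dendritic cells, B cells and endothelium were set beside class II as well. With age 69.5% of all genes tested were called, 33.4% higher, and with treatment 63.3%, 31.5% lower. Of 8 dendritic cell genes, 6 were tested, of which 3 rose with age and 4 fell with treatment. Ccr7 averaged 0.0511 CPM in young, 0.611 in aged and 0.227 in treated libraries, and Flt3 0.163, 0.444 and 0.137. Both could pass the filter only with the aged libraries, so their calls are descriptions. The fall of Cd209a, from 0.278 to 0.0548 CPM with treatment, is of the same kind. The 8 genes summed to 2.08 to 4.03 CPM in young, 6.29 to 9.29 in aged and 4.06 to 6.05 in treated libraries. The dendritic cell sums had the same order of groups as class II, although young replicate 3 (4.03 CPM) and treated replicate 3 (4.06 CPM) almost touched. All 5 B cell genes were called higher with age, although each had at most 8 counts over the young libraries together and so passed the filter through the other groups, from a sum of 0.192 to 0.273 CPM in the young to 2.90 to 3.31 in the aged, and stood at 3.41 to 5.13 in the treated libraries. With treatment 1 B cell gene was called higher and the other 4 were not called. Of 6 endothelial genes, 5 rose with age and all 6 fell with treatment, with sums of 62.8 to 64.7, 162.5 to 176 and 50.15 to 55.0 CPM. The microglial genes P2ry12 and Tmem119 averaged at most 1.15 and 0.497 CPM in any group.

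**Figure D5:**
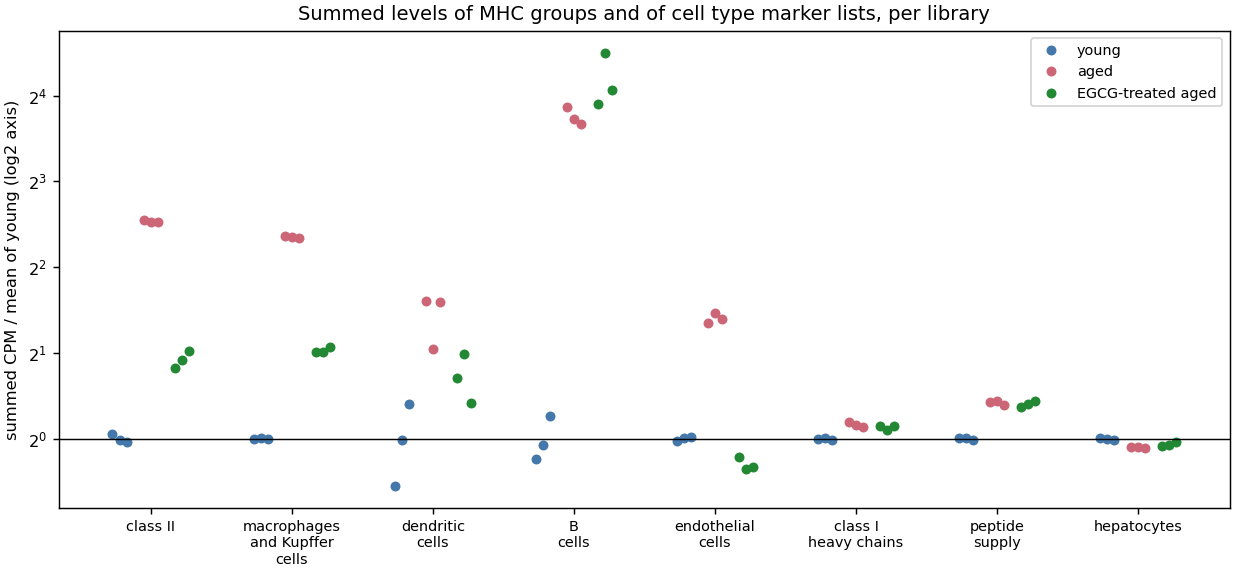
Summed CPM of class II genes, class I heavy chains, peptide supply and 5 marker lists in each library, divided by the young mean, on a log2 axis. Class II and macrophage genes show the same order of groups, aged above treated above young. The B cell sum stays high after treatment, and the hepatocyte sum, of which Alb is the largest part, stays near 1. Of the 8 hepatocyte genes, 2 rose and 6 fell with age, Fgb most, by 1.16.

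Other genes of the pathway were described from lists, and their counts are read against the 69.5% of all genes called with age and the 63.3% called with treatment. Class II endosomal processing had 5 higher and 1 lower of 6 genes with age, and all 6 were lower with treatment. The cysteine protease Ctss, which trims the invariant chain, rose by 2.06 and fell by 1.25, the asparaginyl endopeptidase Lgmn rose by 1.24 and fell by 1.10, and the thiol reductase Ifi30 rose by 1.16 with age (adjusted p = 3.22e-15). Of 6 tested genes of co-stimulatory and checkpoint ligands, all were called higher with age and 5 lower with treatment. Cd80 and Cd40, with at most 9 counts in any young library, passed the filter through the aged libraries and had to differ. Icosl, at means of 0.26 CPM in young and 1.22 in aged libraries, did not pass through the young ones, so its rise is a description too. The fall of Cd80 with treatment, from 0.577 to 0.119 CPM, has the same limit. Cd83, known to stabilise class II at the cell surface, rose from 0.468 to 11.7 CPM and stood at 1.29 CPM in the treated libraries. Cd274, which encodes the checkpoint ligand PD-L1, rose from 0.578 to 6.74 CPM and stood at 1.96, and Cd86 rose by 2.04 and fell by 1.68 (adjusted p = 1.08e-08 and 3.6e-07).

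Interferon genes moved in both directions. Of 9 tested genes of interferon gamma signalling, 5 rose and 2 fell with age, and 1 rose and 6 fell with treatment. Over all genes, 33.4% were called higher and 36.1% lower with age, and 31.8% higher and 31.5% lower with treatment. Irf1, a factor that activates class I and Ciita transcription, rose by 0.64 with age and by a further 0.34 with treatment, while Irf8, a factor of myeloid cells, rose by 0.98 and fell by 1.57. Of 13 GTPases and chemokines induced by interferon gamma, 12 rose and 1 fell with age, and 4 rose and 7 fell with treatment. Cxcl9, a chemokine, rose by 1.93 and fell by 0.63, Gbp2 fell by 1.36 with treatment, and Irgm1 moved the other way, down by 0.88 and up by 0.71. Of 10 tested genes induced by type I interferon, 1 rose and 4 fell with age, among them Ifit1 (-1.05) and Irf9 (-0.71), with the other 5 not called. Of 5 tested class I-like genes outside the H2 family, 3 rose and 2 fell with age, among them Cd1d1, which presents lipids (0.34), and Azgp1 (-0.19).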

How the data were processed

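RNA was extracted with a column kit and libraries were made with a SMARTER mRNA-seq kit, per the labels' protocols. The authors deposited 2 tables for the 9 libraries, raw counts per gene and FPKM per gene; FPKM is scaled to library total and gene length. The genome builds GRCm38 and mm10 are named per the submitters' processing notes; for aligner, counting tool, annotation and use of strand, nothing was given in the sources used here.

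Counts were tested with edgeR 4.0.16 (R 4.3.3) by its quasi-likelihood test with TMM factors and filterByExpr, in 1 model over all 9 libraries, and p-values were adjusted by Benjamini-Hochberg over the 12747 genes tested, with a threshold of 0.05. The common biological coefficient of variation was 5.37%. Replicates of a group differed by more than counting noise, with a chi-square of 3.79 to 4.79 per degree of freedom. Alternatives were DESeq2 1.42.0, upper-quartile factors, no filter, limma 3.58.1 on log2(FPKM + 1) and log2(FPKM + 0.1), a fit of only the groups compared, a replicate block and leaving out each library. On simulated data the age comparison recovered 36% of genes changed 1.2-fold and 82% of those changed 1.5-fold, and called 0.0638% of unchanged genes. The simulation gave every gene the same dispersion, changed only a small share of genes and had no shift of composition. In the real data 69.5% of genes were called with age, so these rates check the code and do not give the error rates here.

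The members and the gene lists were chosen with earlier results of these data known. Values in every library are given for H2-K1, H2-D1, B2m, H2-Aa, H2-Ab1, H2-Eb1, Cd74, Ciita, Nlrc5, Tap1 and Psmb8 and, per comparison, for up to 4 other called members with the largest change and a mean of at least 5 CPM; H2-Q10, whose share is described, was chosen after its values were seen. From each pathway list up to 4 genes with the smallest p are named. Gene coordinates are those of GENCODE M21 (33 members matched); promoters are RefSeq's (GRCm38.p6).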

Additional observations from a re-analysis of the deposited data

How the results depend on the processing

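Replicate numbers did not pair the libraries (correlations of same-numbered libraries from -0.0609 to 0.0201), and with the number as a block, edgeR called 29 members higher and 1 lower with age, 4 and 19 with treatment, and 20 and 3 in treated against young libraries, with no member's call changed. On log2(FPKM + 1) and on log2(FPKM + 0.1), 0 members were called lower with age by limma, because Nlrc5 lost its call (-0.13 and -0.16). Members lower in treated than in young libraries numbered 1 with upper-quartile factors and on both FPKM scales, where H2-D1 turned to 0.0083, 0.0219 and 0.0219 and H2-T23 to 0.0297, 0.0429 and 0.0432. The class II minus class I median was 1.19 with age and 0.69 for treated against young libraries on log2(FPKM + 1), which compresses low genes. The share of calls that were higher moved from 48.1% to 66.8% with age and from 49% to 66.9% for treated against young on that scale, and to 57.9% and 65.6% with upper-quartile factors. Low counts limited H2-T24, H2-M2, H2-M3 and H2-Oa: each lost a call in at least 1 comparison when 1 library was left out. For H2-T24 this was young replicate 1 or aged replicate 2 or 3 with age (adjusted p from 0.0633 to 0.154), and for H2-M3 with treatment aged replicate 1 or 2 or treated replicate 2 or 3 (adjusted p from 0.0544 to 0.196).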
